A study of Cervus nippon with 12 samples.

Results

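miR-221 and miR-222 were followed through 12 small RNA libraries of cultured cells from the growing antler of male sika deer (Cervus nippon). All names built on bta-miR-221 or bta-miR-222, with any arm suffix, were taken. This gave 2 of the 545 names listed, 1 for each miRNA and both without an arm suffix, whereas 96 of the 545 names carried one. Of all names, 475 had the cattle prefix bta, since the deer reads were named after cattle miRNAs. miR-221 came into view because earlier results of these data had shown it to differ at least 2-fold between neighbouring groups, and miR-222 was added as its cluster partner. The members were thus chosen by the same values given here, so levels and fold changes are descriptions and carry no p-value.

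The libraries fell into 4 groups of 3. CP_0, CP_7 and CP_14 were reserve mesenchyme cells (RMCs), the cells of the antler tip that can form cartilage, after 0, 7 and 14 days of chondrogenic induction as a pellet in a centrifuge tube. CC was made from cultured antler chondrocytes, chondrocytes being the cells of formed cartilage. All cells were wild type, so no gene had been altered in any group, and the 0 day cells served as the starting point. The study does not say whether the 0 day cells had already been pelleted. The study describes its 3 libraries a group as biological replicates, but which animal gave which library, and whether time points shared animals, was not given. The spread between libraries is therefore the only error available here. In a chi-squared comparison of reads, CP_14 replicates 1 and 2 were the most alike within a group, at 4.92 per degree of freedom. The next lowest pair, CP_7 replicates 1 and 2, was at 25.6. The reason was not given, and the spread in CP_14 may be understated. A pellet is a model outside the animal. CC cells differed from RMCs in source as well as in state, and the study does not describe them as pelleted or induced. These differences cannot be told apart. In bulk RNA, fewer cells of a type and less RNA per cell cannot be told apart either.

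In mammals miR-221 and miR-222 are encoded close together on the X chromosome and share a seed, the part of a miRNA that pairs with its targets. Both are best known for lowering CDKN1B (p27), an inhibitor of the cell cycle, and the receptor KIT, and they are well studied in endothelium, smooth muscle and tumours. miR-221 has also been studied as a restraint on cartilage formation by mesenchymal stem cells.

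The files gave reads per 1000000 reads on listed miRNAs (RPM), from which whole read numbers were recovered. Depth ran from 539455 reads in CP_7 replicate 3 to 10256572 in CC replicate 1, a 19.0-fold range, and a single name, miR-21-5p, took 21.4% to 76.9% of a library. Because 1 name took so much, levels are given as deposited and also after trimmed mean of M-values (TMM) normalization, which rescales each library after trimming the miRNAs with the most extreme ratios and levels. Both members had at least 1104 reads in every library and passed the filter on low counts in all 6 comparisons. No other name came within 1% of a member's value in every library, so neither was a copy of another entry.

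miR-221 was highest in CP_7 and lowest in CC. As deposited, it stood at 1382, 1265 and 1247 RPM in the 3 CP_0 libraries. In CP_7 it stood at 9784, 10001 and 9890 RPM, and in CP_14 at 2298, 2182 and 2137 RPM. In CC it stood at 548, 572 and 605 RPM. In the order CP_0, CP_7, CP_14 and CC, which holds below wherever 4 values follow each other with no group named, the means were 1298 ± 73.0, 9891 ± 109, 2206 ± 83.4 and 575 ± 28.7 RPM (SD, n = 3 each). Every CP_7 library lay above every other library, and no group overlapped another. miR-221 was thus among the more abundant miRNAs at day 7, ranking 17 to 19 among all names in the CP_7 libraries against 31 to 33 in CP_0, 24 to 25 in CP_14 and 40 to 41 in CC. Counting error was small beside these differences: the exact 95% interval was 9627 to 10157 RPM in the shallowest library, CP_7 replicate 3, and 534 to 562 RPM in the deepest, CC replicate 1.

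After TMM normalization the order of the groups stayed CP_7, CP_14, CP_0, CC and the distances shrank. The TMM-normalized level of miR-221 was 1489, 1495 and 1456 in CP_0 and 4945, 5936 and 4728 in CP_7. It was 2248, 2131 and 2286 in CP_14 and 980, 954 and 930 in CC. Means were 1480 ± 20.6, 5203 ± 644, 2222 ± 80.5 and 955 ± 24.8 (SD, n = 3 each), and no neighbours in the order overlapped. The span from the lowest to the highest library was 18.3-fold in RPM and 6.38-fold after TMM normalization. With miR-21-5p reads taken out of the total, the means were 3272 ± 180, 12886 ± 290, 4277 ± 320 and 2320 ± 74.1 RPM, so the order stayed.

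miR-222 had fewer reads than miR-221 in all 12 libraries, and its level spanned a narrower range. It stood at 487, 574 and 471 RPM in CP_0 and at 2261, 2412 and 2047 RPM in CP_7. In CP_14 the values were 705, 710 and 694 RPM and in CC 400, 364 and 360 RPM. CP_7 was again above all other libraries, and on the RPM scale no groups overlapped, with means of 511 ± 55.6, 2240 ± 184, 703 ± 8.33 and 375 ± 21.6 RPM (SD, n = 3 each). It ranked 34 to 39 among all names in CP_7 and between 43 and 54 in the other 9 libraries.

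The lower part of this order depended on the scale. TMM-normalized levels of miR-222 were 525, 678 and 550 in CP_0 and 1143, 1432 and 978 in CP_7. They were 690, 694 and 743 in CP_14, and 715, 608 and 554 in CC. CP_7 stayed apart, with a mean of 1184 ± 229 against 709 ± 29.4 in CP_14, 626 ± 81.6 in CC and 584 ± 82.4 in CP_0 (SD, n = 3 each). CP_14 overlapped CC and CC overlapped CP_0, so that these neighbours did not differ beyond their spread. Once the reads of miR-21-5p were removed from the total, the order was CP_7, CC, CP_14, CP_0, with means of 2921 ± 290, 1520 ± 201, 1366 ± 122 and 1291 ± 183 RPM. Here too CC (1332 to 1733), CP_14 (1282 to 1506) and CP_0 (1162 to 1500) overlapped.

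**Figure D1:**
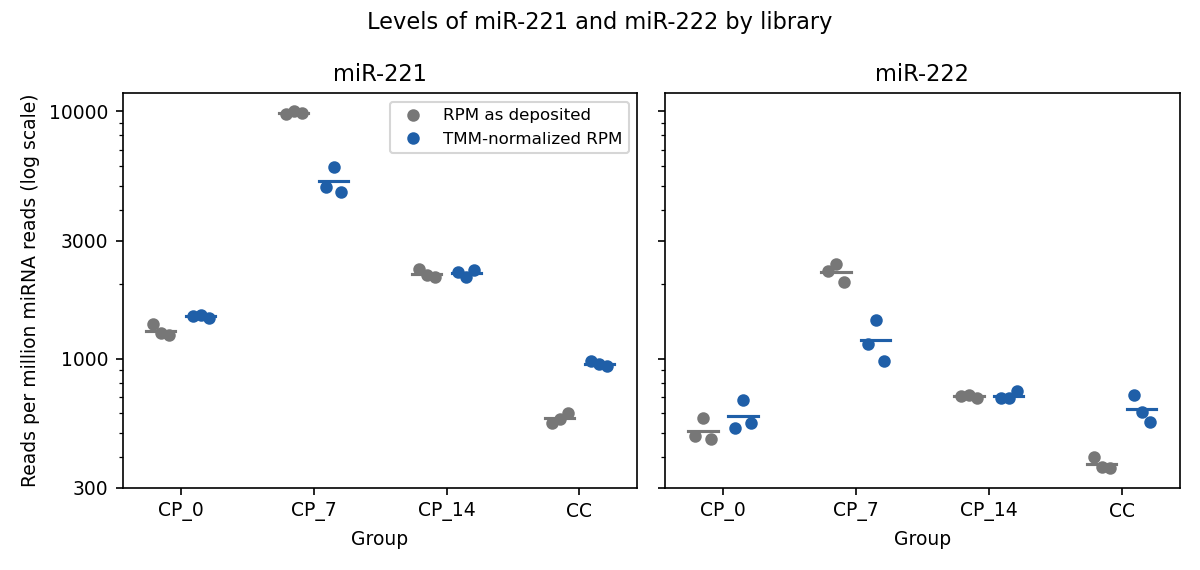
Level of miR-221 (left) and miR-222 (right) in each library, in RPM on a log axis, for the groups CP_0, CP_7, CP_14 and CC. Grey points are RPM as deposited, blue points TMM-normalized RPM, and lines are means of 3 libraries; CP_7 is the highest group in both panels on both scales, at a mean of 9891 RPM for miR-221 and 2240 RPM for miR-222.

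The recovered reads of miR-221 spanned a narrower range than its level on either scale, and those of miR-222 a narrower range than its RPM but a wider one than its 2.73-fold TMM-normalized span. miR-221 had 4109, 5185 and 4536 reads in CP_0 and 7530, 10321 and 5335 in CP_7. It had 6416, 6600 and 8258 reads in CP_14 and 5618, 5552 and 6031 in CC. This was a 2.51-fold range over 12 libraries whose depth ranged 19.0-fold. For miR-222, CP_0 gave 1449, 2353 and 1712 reads and CP_7 gave 1740, 2489 and 1104. It had 1969, 2149 and 2683 reads at day 14 and 4098, 3538 and 3593 in the chondrocytes, a 3.71-fold range. In read numbers miR-222 was therefore highest in CC, where its RPM was lowest. Summed over both members, the libraries held 5558 to 12810 reads, with group means of 6448, 9506, 9358 and 9477.

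Between groups, then, reads of the pair were close while depth was not, since the CP_7 libraries were the 3 shallowest and the CC libraries the 3 deepest. Within each RMC group the reverse was seen, as reads of miR-221 rose with depth. This was closest in CP_7, with a coefficient of variation of 32.3% in reads and 1.10% in RPM. The same values were 11.8% and 5.62% in CP_0, 14.3% and 3.78% in CP_14, and 4.53% and 5.00% in CC. The part of depth in the differences between groups was not tested, and group and depth cannot be told apart here because no shallow library was CC and no deep one CP_7.

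**Figure D2:**
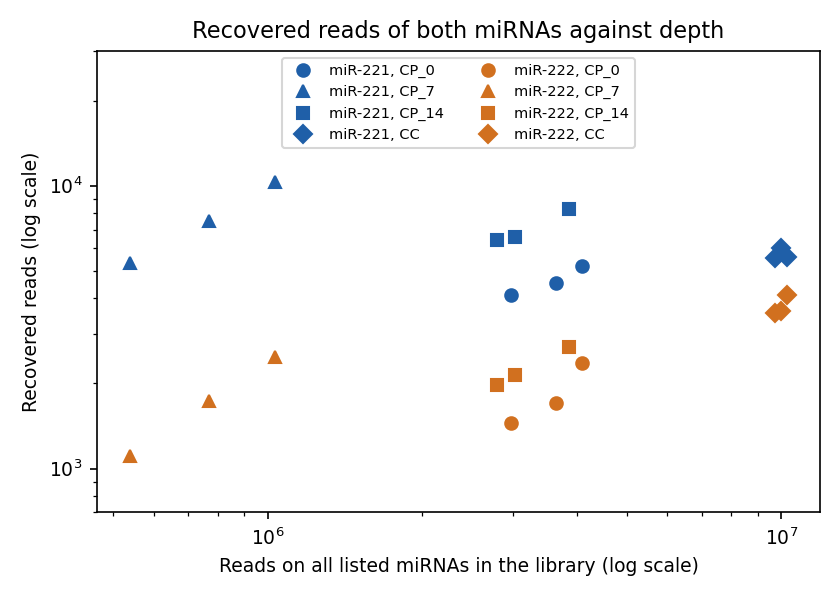
Recovered reads of miR-221 (blue) and miR-222 (orange) against the reads on all listed miRNAs in the same library, both on log axes, with 1 point a library and a marker shape for each group. Depth spans 19.0-fold, reads of miR-221 span 2.51-fold, and within CP_7 the 3 points of each miRNA climb with depth.

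The ratio of the members does not depend on how libraries are scaled against each other. Of the reads of the pair, miR-222 made up 26.1%, 31.2% and 27.4% in CP_0 and 18.8%, 19.4% and 17.1% in CP_7. It made up 23.5%, 24.6% and 24.5% in CP_14 and 42.2%, 38.9% and 37.3% in CC. The groups were ordered CC, CP_0, CP_14, CP_7, with no overlap between any of them. In every 100 reads of miR-221 there were 65.4 ± 6.84 of miR-222 in CC, 39.5 ± 5.27 in CP_0, 31.9 ± 1.06 in CP_14 and 22.6 ± 1.76 in CP_7 (SD, n = 3 each). CP_0 was nearest to CP_14, its lowest library at 26.1% (exact 95% interval 24.9 to 27.2%) and the highest CP_14 library at 24.6% (23.7 to 25.5%), so that the counting intervals of these libraries overlapped.

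On the log2 scale the ratio of miR-222 to miR-221 was −1.35 ± 0.19, −2.15 ± 0.11, −1.65 ± 0.048 and −0.62 ± 0.15 (SD, n = 3 each). It was lower in CP_7 than in CP_0, by −0.80 (SE 0.13), and higher in CP_14 than in CP_7, by 0.50 (SE 0.071). Against CC the differences were 1.03 (SE 0.090) over CP_14, 1.53 (SE 0.11) over CP_7 and 0.73 (SE 0.14) over CP_0. The smallest difference was that of CP_14 from CP_0, at −0.30 (SE 0.11). The share of miR-222 was thus lowest at day 7, where both members stood highest, and highest in the chondrocytes. Because miR-221 was picked for its changes, the ratio is likewise given without a test.

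**Figure D3:**
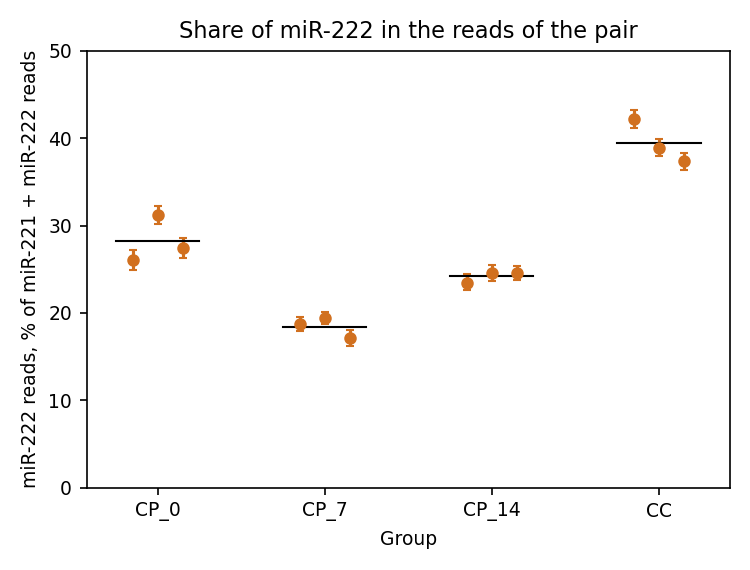
Percentage of miR-222 in the summed reads of miR-221 and miR-222, 1 point a library, with replicates 1 to 3 from left to right and exact 95% binomial intervals that cover counting error only; black lines are means of 3 libraries. CC lies at 37.3% to 42.2% and CP_7 at 17.1% to 19.4%, and no groups overlap.

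For fold changes, limma was fitted to log2(TMM-normalized RPM + 1) in the 6 libraries of each comparison and across all miRNAs that passed the filter, and a miRNA was called at a Benjamini-Hochberg adjusted p under 0.05. At 7 days of induction against day 0, miR-221 was 3.62-fold higher, a log2 fold change of 1.86 (SE 0.082), and miR-222 was 2.09-fold higher, at 1.06 (SE 0.16). Both members were called higher, where 35.8% of the 246 miRNAs tested were called higher. miR-221 ranked 39 and miR-222 ranked 68 of the 246 from the highest fold change. Since the contrasts between neighbouring groups helped to choose miR-221, nothing is read from these counts or from those of the members below.

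From day 7 to day 14 both members were lower. The log2 fold change of CP_14 against CP_7 was −1.30 (SE 0.078) for miR-221, a 2.46-fold lower level, and −0.80 (SE 0.12) for miR-222, a 1.74-fold lower level. Both were called lower, beside 28.5% of the 246 miRNAs tested. By their means both stayed above day 0. Against CP_0, CP_14 was higher by 0.60 (SE 0.056) for miR-221, which was called, and by 0.30 (SE 0.11) for miR-222, which was not. That made 1 of 2 members, beside 24.8% of the 250 miRNAs tested that were called higher.

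In the chondrocytes miR-221 was lower than in each RMC group. Its log2 fold change was −1.23 (SE 0.054) against CP_14, −2.71 (SE 0.071) against CP_7 and −0.76 (SE 0.035) against CP_0, or 2.34-fold, 6.56-fold and 1.70-fold lower. miR-221 was called in all 3. Those called lower were 37.0% of 276 miRNAs against CP_14, 38.4% of 276 against CP_7 and 25.8% of 260 against CP_0.

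For miR-222 the comparison with CP_7 was the only one of these 3 with a call. There its log2 fold change was −1.18 (SE 0.13), a 2.27-fold lower level. Without CP_7 replicate 2 it was −0.52 and without CP_7 replicate 1 it was −0.82, and in neither case was it called. Against CP_14 it was −0.20 (SE 0.082) and against CP_0 it was −0.031 (SE 0.13), neither called and both with overlapping groups. Of the miRNAs tested, 88.0% had a larger absolute change than miR-222 against CP_14 and 96.9% against CP_0. The comparisons share libraries, so the values of the 6 are not independent of each other.

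**Figure D4:**
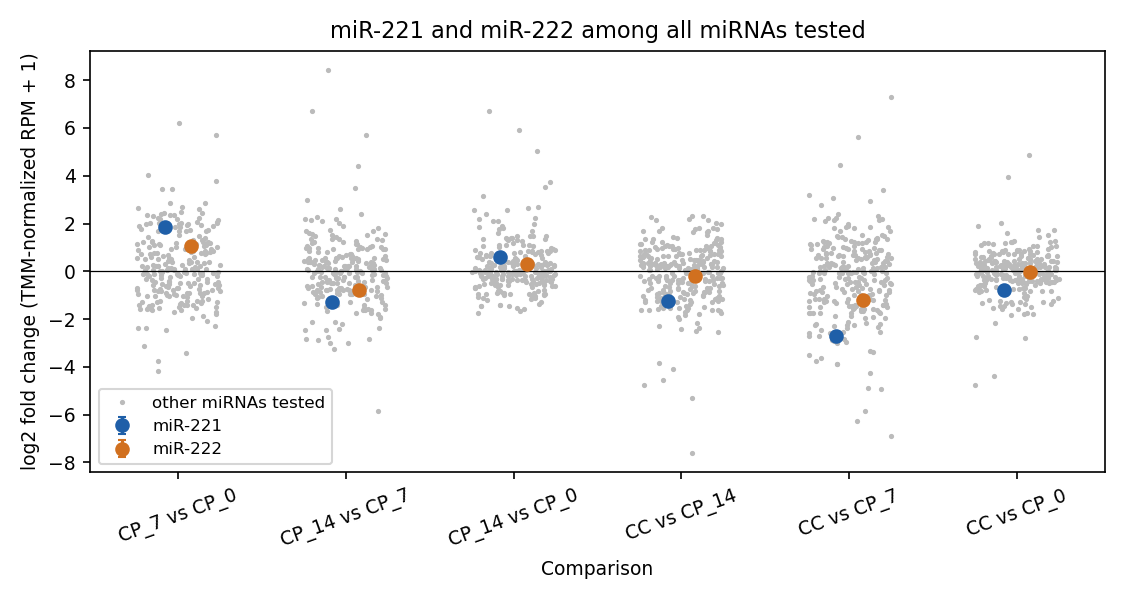
log2 fold change of miR-221 (blue) and miR-222 (orange) among all other miRNAs tested (grey) in each of the 6 comparisons, from limma on log2(TMM-normalized RPM + 1); bars are standard errors, mostly smaller than the points. miR-221 lies further from 0 than miR-222 in every comparison, from 1.86 in CP_7 against CP_0 to −2.71 in CC against CP_7.

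The size of these changes turned on the scaling, because the scalings moved all miRNAs together. With library size alone, the median of all miRNAs tested was itself 1.12 higher in CP_7 than in CP_0 and 1.44 lower in CC than in CP_7 on the log2 scale, whereas with TMM these medians were 0.075 and −0.089. Over 6 scalings the difference between CP_7 and CP_0 for miR-221, on the log2 scale, ran from 0.70 to 2.93, and that of miR-222 from −0.096 to 2.13. The lowest values came from reads without any normalization, where miR-222 turned negative. Taken relative to the median of all miRNAs tested, the same changes ran only from 1.74 to 1.81 for miR-221 and from 0.94 to 1.01 for miR-222.

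These scalings move all miRNAs of a library nearly alike, so taking away the median removes most of their effect by construction, and the narrow ranges are no sign of stability. They give the change of each member relative to the other miRNAs. For CP_14 against CP_7 the range was −1.33 to −1.27 for miR-221 and −0.83 to −0.77 for miR-222. For CC against CP_14 it was −1.40 to −1.30 for miR-221, and only −0.37 to −0.27 for miR-222. For CC against CP_0 it was −0.85 to −0.81 for miR-221 and −0.12 to −0.078 for miR-222, the smallest of all, and the fitted value of the latter changed sign without CP_0 replicate 2 (0.10) or CC replicate 3 (0.048).

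**Figure D5:**
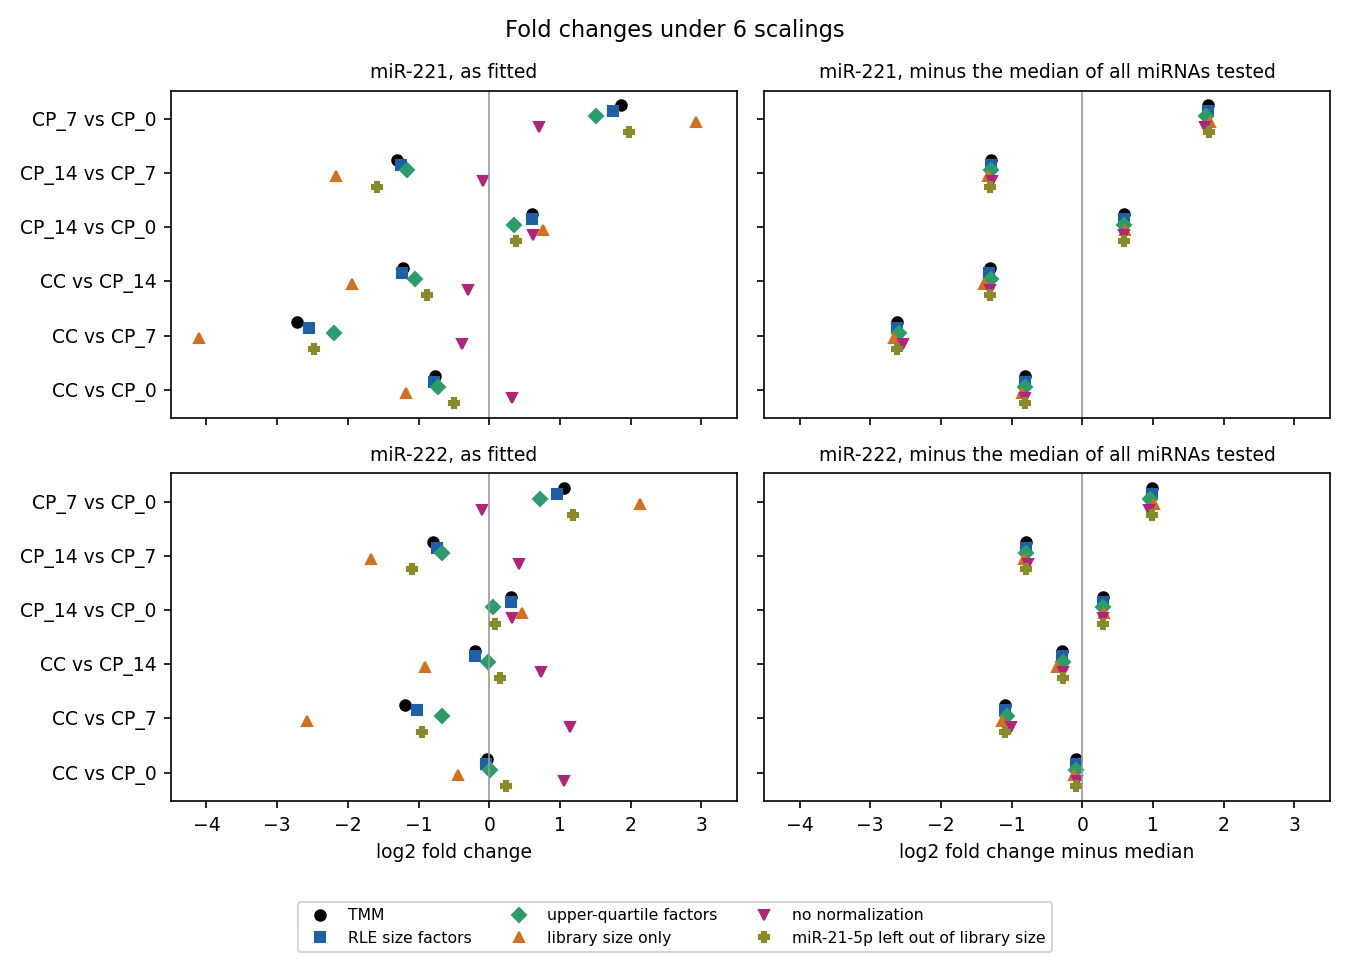
log2 fold changes of miR-221 (top) and miR-222 (bottom) in the 6 comparisons under 6 scalings, as fitted (left) and minus the median of all miRNAs tested (right). The fitted values spread widely, from 0.70 to 2.93 for miR-221 in CP_7 against CP_0, and those minus the median lie close together, from 1.74 to 1.81, since taking away the median removes most of a scaling's effect by construction.

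The members were then set among other miRNAs by their pattern over the 12 libraries, as Pearson's r on log2(TMM-normalized RPM + 1) with 198 other names. These values are descriptions, since libraries share depth and composition and the 4 group means set most of r. miR-221 and miR-222 had r = 0.88 with each other, which placed miR-222 as number 11 among the names most like miR-221. Most like miR-221 were miR-30b-5p (r = 0.98), miR-29a (0.94), miR-199c (0.93), miR-199a-3p (0.91) and miR-3604 (0.91). The values of miR-199a-3p and miR-3604 were nearly the same in every group, so their reads cannot be told apart. miR-30b-5p had TMM-normalized levels of 86.3 ± 4.04, 310.1 ± 38.6, 153 ± 16.3 and 79.3 ± 0.37 (SD, n = 3 each), the same order as miR-221.

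Most like miR-222 were miR-155 (r = 0.98), a miRNA known from immune cells, then miR-29a (0.94), miR-186 (0.94), miR-30b-5p (0.92) and miR-29b (0.91). miR-155 stood at 715 ± 71.3, 2847 ± 818, 1061 ± 304 and 872 ± 117 TMM-normalized RPM. As for miR-222, CP_7 was highest and CC overlapped CP_0.

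The names least like miR-221 were miR-100, miR-193b and miR-140, each at r = −0.98. miR-140, the miRNA of cartilage, stood at 10756 ± 417, 5100 ± 312, 9818 ± 199 and 17001 ± 725 TMM-normalized RPM. These negative values rested on the scaling: with library size alone r was −0.72 for miR-100, −0.15 for miR-140 and 0.93 for miR-193b. Least like miR-222 were miR-215 (r = −0.95), miR-28 (−0.90) and miR-27a-5p (−0.90), at −0.75, 0.15 and −0.65 with library size alone. The highest values stayed high under library size alone, with r of 0.99 for miR-30b-5p with miR-221 and 0.99 for miR-155 with miR-222. Under that scaling most miRNAs moved together between groups, and miR-193b itself reached 0.93. High values there are therefore no sign of stability.

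The miR-17-92 cluster and its paralogues, of which some are known for lowering CDKN1A, another cell cycle inhibitor, were counted beside the members. All 13 names of this list were present. In CP_7 against CP_0, 8 were tested, none was called higher and 7 were called lower, with a median log2 fold change of −1.06 beside 0.075 for all miRNAs tested, of which 28.0% were called lower. This count rested on the scaling, since with library size alone 2 were called higher and 1 lower. miR-20a fell by 1.05 (SE 0.18), miR-93 by 1.23 (SE 0.21) and miR-25 by 0.46 (SE 0.13), all called. No p-value is printed, since the list was chosen with earlier results of these data known. miR-92a, at −0.012 (SE 0.20), passed no threshold.

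From day 7 to day 14, 9 of the cluster names were tested, of which 3 were called higher and none lower, with a median of 0.20 and a background of 24.4% called higher. With library size alone 1 was called higher and 6 lower. In CC against CP_14, where miR-221 was lower, 9 of 10 tested were called higher and 1 lower, with a median of 1.65, beside 37.7% of all miRNAs called higher. With library size alone 7 were called higher and 3 lower. miR-20a rose by 2.16 (SE 0.16) and miR-93 by 2.31 (SE 0.11). miR-92a and miR-25 rose less, by 0.32 (SE 0.087) and 0.35 (SE 0.077), and were called as well.

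A list of miRNAs known from cartilage formation held calls in both directions. Of its 19 names 18 were listed. In CP_7 against CP_0, 16 were tested, with 8 called higher and 5 lower and a median of 0.42, beside 35.8% higher and 28.0% lower of all miRNAs tested. miR-199a-3p was 1.11 higher (SE 0.081) and miR-140 was 1.03 lower on the log2 scale (SE 0.077), both called. From day 7 to day 14, 3 were called higher and 6 lower of 16, with a median of −0.17, beside 24.4% and 28.5% of all miRNAs tested. In CC against CP_14, 7 were called higher and 8 lower of 17, with a median of 0.19, beside 37.7% and 37.0%. Several of these counts lay near the shares over all miRNAs, and nothing particular to the list is read from them. With library size alone the counts became 13 higher and 0 lower, 0 and 14, and 2 and 12, so these splits rested on the scaling.

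Marker miRNAs of other cell types were read beside the members. Cartilage miR-140 was abundant in all groups, at 8831 to 11013 RPM in all 12 libraries. In TMM-normalized RPM, the scale of the other markers, it ran from 10312 to 11140, 4761 to 5376, 9598 to 9987 and 16313 to 17758, lowest where miR-221 was highest and highest where it was lowest. The 4 skeletal muscle names, mostly miR-1, were also highest at day 7 and next at day 14, with summed TMM-normalized RPM of 621 to 798, 2169 to 3937, 1660 to 1803 and 1156 to 1285. The smooth muscle names miR-143 and miR-145 summed to 142357 to 185515, 43596 to 54288, 217505 to 269792 and 64720 to 78814. The sum was nearly all miR-143, which was lowest in CP_7 among the RMC groups. miR-145 alone had its highest mean there, at 1058, 1258 and 702 TMM-normalized RPM against 549, 724 and 619 in CP_0, with overlapping groups.

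Both names of endothelial miR-126 summed to 55.6 to 68.5, 95.2 to 1474, 61.5 to 81.7 and 50.7 to 59.5 TMM-normalized RPM. The highest value was that of CP_7 replicate 3, with 1658 reads of miR-126-3p against 143 and 333 in the other CP_7 libraries. In that library miR-221 stood at 9890 RPM, between the 9784 and 10001 RPM of the other CP_7 libraries. After TMM normalization it was the lowest CP_7 library for miR-221, at 4728 against 4945 and 5936. For miR-222 it was the lowest CP_7 library on both scales, at 2047 RPM and 978 TMM-normalized RPM. The part of these cell types in the levels of the members was not tested.

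The 6 blood names summed to 17.0 to 4928, 11.8 to 94.9, 3749 to 5079 and 2142 to 2622 TMM-normalized RPM. Of these names, miR-144 was at 0 in CP_7 and CP_14, and miR-223 was at 0 in CP_7. CP_0 replicate 3 stood apart from its group, with 6933 reads of the red cell miRNA miR-451 against 27 and 29. In this it was like the CP_14 libraries, at 6431, 6039 and 6109 reads, and the CC libraries, at 6619, 6293 and 6119. The CP_7 libraries held 8, 17 and 2 reads of miR-451. The source of these reads was not tested. CP_0 replicate 3 was the lowest CP_0 library for both members in RPM. miR-221 stood at 1247 against 1382 and 1265, and miR-222 at 471 against 487 and 574. After TMM normalization it was still lowest for miR-221, at 1456 against 1489 and 1495. For miR-222 it was not, at 550 against 525 and 678. The 5 epithelial names stayed at 45.3 or less TMM-normalized RPM in every library. Leaving out any single library, CP_0 replicate 3 included, the difference between CP_7 and CP_0 on the log2 scale stayed within 1.57 to 1.89 for miR-221 and 0.73 to 1.20 for miR-222.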

How the data were processed

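Small RNA of RMCs and cultured chondrocytes had been sequenced on an Illumina NovaSeq after NEBNext library preparation. The submitters' processing notes name CASAVA, bcl2fastq 1.8.4 and Bowtie. For the miRNA database, genome build, trimming and counter, nothing was stated in the labels or methods used here. The deposited values are RPM, which the authors scaled to 1000000 reads on all listed miRNAs a library. Every value was a whole multiple of what 1 read is worth, within 0.01 read, so 100% were turned back into reads.

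Names were kept by edgeR's filterByExpr (minimum count 10, total 15), with TMM factors from edgeR 4.0.16. limma 3.58.1 (R 4.3.3) was fitted with an intensity trend to log2(TMM-normalized RPM + 1) over the 6 libraries of each comparison, with Benjamini-Hochberg adjustment. Levels by library used TMM factors over all 12. Fold changes are on this scale and understate those of low miRNAs. The fit was tested on simulated data. Alternatives were edgeR's quasi-likelihood test and DESeq2 1.42.0 on recovered reads, other scalings, pseudocounts and filters, 1 fit over 12 libraries, a replicate block, and leaving out each library.

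The members and lists were chosen with earlier results of these data known. Named besides the members were the 5 miRNAs with the highest and the 3 with the lowest r with each, among cattle names averaging 50 reads or more in at least 1 group, up to 4 abundant names of each list, and cell type markers. Intervals cover counting error only. Replicate numbers were not used to pair libraries in the main fits, and whether they mark shared animals was not given. Sequences of the miRNAs were not analysed here.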

Additional observations from a re-analysis of the deposited data

How the results depend on the processing

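Of 216 alternative values for the 12 fold changes of the members, 189 kept direction and call, 12 reversed, 9 gained a call and 6 lost one. Without normalization, in which depth enters in full, miR-221 was not called at 0.70 in CP_7 against CP_0, −0.082 in CP_14 against CP_7, −0.30 in CC against CP_14 and −0.38 in CC against CP_7, and reversed to 0.32 in CC against CP_0. Under the same setting miR-222 reversed to −0.096 in CP_7 against CP_0, 0.42 in CP_14 against CP_7, 0.73 in CC against CP_14, 1.15 in CC against CP_7 and 1.05 in CC against CP_0. miR-222 gained a call with library size alone in CP_14 against CP_0 (0.47), CC against CP_14 (−0.91) and CC against CP_0 (−0.44), in CP_14 against CP_0 with a pseudocount of 5 (0.30) or edgeR (0.32), and in CC against CP_14 with edgeR (−0.22) or DESeq2 (−0.25). Leaving miR-21-5p out of the library size reversed miR-222 to 0.15 in CC against CP_14 and 0.24 in CC against CP_0. In the latter it also reversed with upper-quartile factors (0.0058) and in 1 fit over 12 libraries (0.099). The cause of these changes was not tested.

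Leaving out each library kept direction and call in 66 of 72 values. For miR-222 the range was 0.24 to 0.42 in CP_14 against CP_0, called without CP_0 replicate 2. In CC against CP_14 it was −0.28 to −0.13, called without CC replicate 1 and lowest in size without CC replicate 3. In CC against CP_7 it was −1.26 to −0.52, not called without CP_7 replicate 1 or 2. In CC against CP_0 it was −0.12 to 0.10, positive without CP_0 replicate 2 or CC replicate 3. Same-numbered libraries correlated at −0.35 to 0.18 in their deviations, which cannot settle whether they shared an animal. The replicate block pairs libraries by number only. With it miR-221 stayed at 1.86 and miR-222 at 1.06 in CP_7 against CP_0, and no call of a member changed. Calls over all miRNAs went from 60 higher and 70 lower to 46 and 54 in CP_14 against CP_7. Of the 5 names most like miR-221, 2 remained with library size alone, 3 with Spearman's rho and 3 without CP_0 replicate 3; for miR-222 these counts were 3, 2 and 4. The number of libraries, 3 a group, and the depth, which parts CP_7 from CC, both limit the precision.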
